A study of Homo sapiens with 30 samples.

Results

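The data described here are the 6 arrays hybridized with RNA of A375 cells collected at 4 h: 3 arrays of cells given 650 nM MLN4924 and 3 of cells given 0.065% DMSO, the vehicle, out of 30 arrays in the series. The groups were taken from the sample titles. A375 is an established human melanoma cell line, grown here in DMEM with fetal bovine serum, so all arrays come from 1 line. The remaining arrays of the series, from earlier and later times, entered the normalization, the choice of probe sets and the estimate of the spread between replicates, but no comparison. The labels do not say that replicates came from separate cultures, so p-values measure the spread between these arrays, which may be technical.

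MLN4924 (pevonedistat) is a small molecule inhibitor of the NEDD8-activating enzyme. NEDD8 is a ubiquitin-like protein whose attachment to cullins switches on the cullin-RING ubiquitin ligases, which mark many short-lived proteins for the proteasome. Among their known substrates are NRF2, the transcription factor of the antioxidant response, which the CUL3 receptor KEAP1 recognises, as well as ATF4, HIF-1 alpha, MYC, JUN, the inhibitor of NF-kB, cyclins, CDK inhibitors and the replication licensing factor CDT1. Arrays measure mRNA, so the abundance of these proteins was not measured. The comparison asks which transcripts differed in level between inhibitor and vehicle after 4 h.

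Levels are normalized probe set signals, and changes are differences of log2(signal + 32) between MLN4924 and DMSO, each from 1 probe set a gene. A gene was called at a Benjamini-Hochberg adjusted p under 0.05 from limma over 19775 genes, and "rose" and "fell" are used only of such genes. As signals from different probe sets are not comparable, levels are compared between groups and not between genes. In bulk RNA fewer cells of a type and less RNA per cell cannot be told apart. In brackets after a gene, its log2 change comes first and its adjusted p second. The correlation of log2 values between arrays, taken across genes, which are not independent, ran from 0.98986 to 0.99113 within MLN4924, from 0.99111 to 0.99251 within DMSO and from 0.98694 to 0.98925 between the groups. The median signal lay between 32.6 and 35.8 on MLN4924 arrays and between 35.2 and 38.2 on DMSO arrays before normalization. The ratio of 3' to 5' signal for ACTB, a sign of RNA integrity, ran from 1.21 to 1.26 with MLN4924 and from 1.24 to 1.37 with DMSO.

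Of 12 melanoma markers measured, 9 lay above the median signal of all genes, and the pigment genes PMEL, MLANA and TYRP1 did not. The summed signal of these markers was 4222 to 4517 on MLN4924 arrays, against 4820.0 to 5251 on DMSO arrays, so that the groups did not overlap, and the part of this in other results was not tested. Such sums are weighted by the brightest probe sets. SOX10 alone had a mean of 429.5 with MLN4924 and 823.6 with DMSO. Of the 12 markers only SOX10 and MITF were called, both lower, and each lost its call when some single array was left out. For 10 fibroblast markers the sums were 342 to 431 with MLN4924 and 408 to 423 with DMSO, with 6 markers including COL1A2 and COL3A1 not above the median. For 6 blood cell markers the sums were 396 to 456 with MLN4924 and 425 to 520.2 with DMSO. Of these 6, 3 lay above the median, and PTPRC, CD3D and CD14 did not. Endothelial markers summed to 132 to 199 with MLN4924 and 163 to 190.3 with DMSO, with 7 of 8 not above the median. Keratinocyte and epithelial markers, among them KRT10 and KRT18, summed to 4761 to 5372 with MLN4924 and 4826 to 5145 with DMSO, while EPCAM and CDH1 were not above the median. One of the keratinocyte genes, KRT5, was called (0.68, adjusted p = 0.0379), and was not without MLN4924 replicate 1, 2 or 3 or DMSO replicate 1 or 2, each left out alone (adjusted p = 0.0618 to 0.241).

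Between MLN4924 and DMSO, 671 genes (3.39% of those tested) were called: 361 rose (1.83%) and 310 fell (1.57%). At least a 2-fold change was seen for 51 of them, 37 up and 14 down. The 3 arrays of each group did not overlap for 670 of the called genes, against 20.7% of all genes. The median absolute log2 change was 0.45 among called genes and 0.10 among all genes, while the median change of all genes was -0.005. The share of called genes that rose was 53.8%, but it was 49.1% with signals as deposited and 67.7% after centring each array by its median, so the balance of rises and falls depends on the scaling. Of the 671 calls, 179 (89 up, 90 down) held under every one of 17 alternatives that tested the gene, and 47 of the 51 with at least a 2-fold change did so. A fit of the 6 arrays of 4 h alone, with fewer arrays to estimate the spread, called 295 genes. For 21 of the genes named below as called, that fit was the only alternative that ended the call, with an adjusted p of 0.0512 to 0.116 there, and they are marked as not called in the 6-array fit. Averaging all probe sets of a gene kept the call but gave smaller changes for several genes, such as 1.41 for IL17RD, 0.66 for TXNRD1, -0.50 for TGFA and -0.48 for SOX2. At an unadjusted p under 0.05, used below only to describe lists, 13.6% of all genes differed, 6.52% higher and 7.07% lower with MLN4924. Counts of list members below are to be read against these shares and, for calls, against the 1.83% and 1.57% of all genes that rose and fell. All genes include many dim ones, while most lists hold mainly genes above the median signal. With genes of low signal left out, 799 of 12092 genes were called, so the shares of all genes are a low baseline for such lists. Members and lists were also chosen with earlier results of these data known, so their shares are descriptive and not independent support. All genes named below as having risen or fallen had non-overlapping groups.

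**Figure D1:**
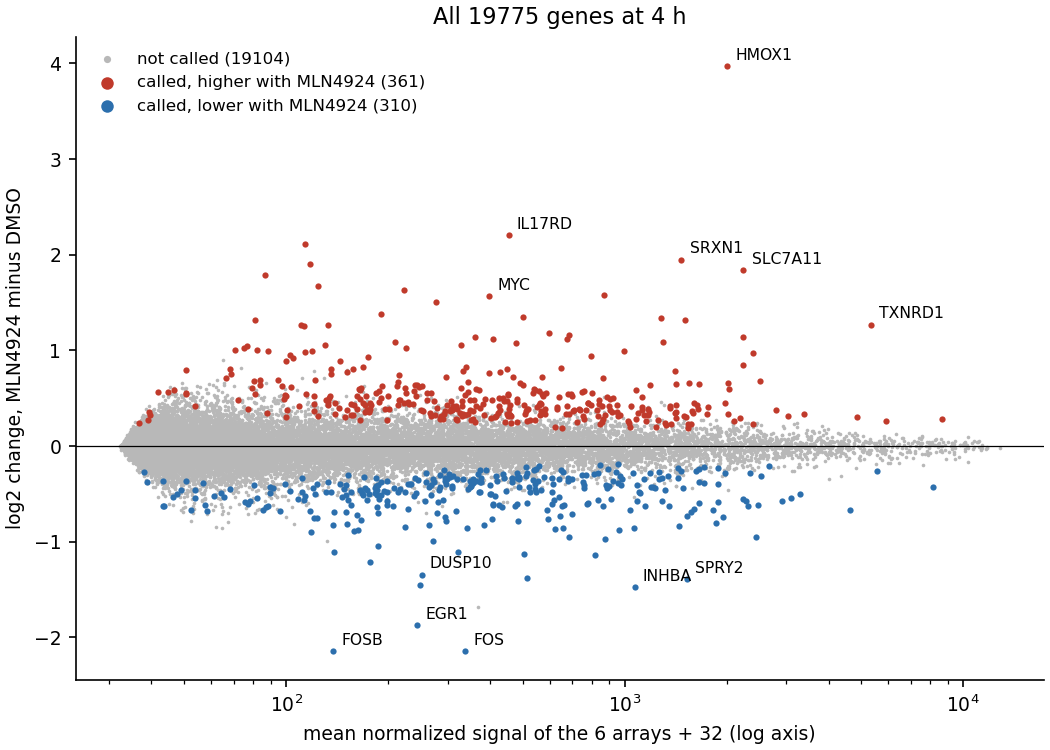
Mean normalized signal plus 32 over the 6 arrays (log axis) against the log2 change, MLN4924 minus DMSO, for 19775 genes. Points above 0 are higher with MLN4924. Red points are the 361 genes that rose, blue points the 310 that fell and grey points the rest; HMOX1 stands highest at 3.97, and FOSB and FOS lowest at -2.14.

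Among the genes named for the size of their change, which leaves out clones and probe sets below the median signal in both groups, HMOX1 rose most, followed by IL17RD (2.20), KRTAP3-1 (2.11), SRXN1 (1.95), OSGIN1 (1.90), SLC7A11 (1.84), KCNE4 (1.68), ANKRD1 (1.64), TRIM16 (1.58) and MYC (1.57). Farthest down were FOSB (-2.14), FOS (-2.14), EGR1 (-1.87), INHBA (-1.48), NR4A2 (-1.45), SPRY2 (-1.39), TFAP2B (-1.38) and DUSP10 (-1.34). The genes that rose thus include several known targets of NRF2, and those that fell several immediate early genes. Of the inhibitors of growth factor signalling among them, SPRY2 fell and IL17RD rose. Some large values are those of dim probe sets, for which the size depends on the 32 added before taking logs. With 1 added, the change was 3.71 for KRTAP3-1, 3.12 for OSGIN1 and -3.37 for FOSB. KCNE4, a regulatory subunit of potassium channels, was not called with 1 or 16 added (adjusted p = 0.112 and 0.0858, 1.37e-07 to 0.112 over all alternatives), where another of its probe sets became the brightest and was used (74.5 with MLN4924 and 39.1 with DMSO). With its probe set held fixed, a check chosen after seeing the data, KCNE4 gave 2.49 with 1 added and 2.00 with 16 added, both called (adjusted p = 5.47e-06 and 9.21e-07).

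The promoters of 4 genes that changed are shown because each holds, within 250 bases upstream of the start site, the letters of a motif known for a factor its list is built on. The sequences are those of RefSeq on GRCh38.p14, 5' to 3' on the strand of the gene, and capitals mark the match. GCLM and TXNRD1, which rose, hold an antioxidant response element core (TGACNNNGC on either strand), the site of NRF2 with a small MAF protein, at -34 to -26 and -99 to -91 from the start site. CHAC1, which rose, holds a C/EBP-ATF composite element (TGATGNAA on either strand), a site of ATF4, at -209 to -202. EGR1, which fell, holds CArG boxes, the site of serum response factor, at -105 to -96 and -83 to -74.
GCLM, chr1:93909431-93909680, minus strand: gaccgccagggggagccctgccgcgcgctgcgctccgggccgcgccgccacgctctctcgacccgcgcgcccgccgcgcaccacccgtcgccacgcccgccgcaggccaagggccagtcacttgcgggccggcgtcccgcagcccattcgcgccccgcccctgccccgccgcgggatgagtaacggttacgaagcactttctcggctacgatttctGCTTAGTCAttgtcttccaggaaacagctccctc
TXNRD1, chr12:104215529-104215778, plus strand: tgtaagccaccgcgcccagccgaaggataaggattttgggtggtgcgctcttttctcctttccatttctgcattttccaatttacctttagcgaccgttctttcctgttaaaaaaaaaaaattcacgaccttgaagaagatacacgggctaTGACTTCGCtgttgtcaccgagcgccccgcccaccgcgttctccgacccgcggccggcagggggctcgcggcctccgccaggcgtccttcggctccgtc
CHAC1, chr15:40953221-40953470, plus strand: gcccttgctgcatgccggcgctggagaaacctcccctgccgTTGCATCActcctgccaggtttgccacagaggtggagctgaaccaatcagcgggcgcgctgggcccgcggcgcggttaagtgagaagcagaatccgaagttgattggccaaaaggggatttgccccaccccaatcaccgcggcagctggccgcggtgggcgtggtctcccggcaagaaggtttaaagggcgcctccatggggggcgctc
EGR1, chr5:138465229-138465478, plus strand: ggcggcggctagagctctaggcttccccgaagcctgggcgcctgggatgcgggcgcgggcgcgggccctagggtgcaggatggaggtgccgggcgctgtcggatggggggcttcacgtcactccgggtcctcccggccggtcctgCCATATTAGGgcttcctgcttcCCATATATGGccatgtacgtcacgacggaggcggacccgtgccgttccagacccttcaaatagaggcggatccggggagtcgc

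Such matches are common and only describe the letters. The antioxidant element core was found in 11.03% of 27305 promoters of this length, the composite element in 3.19% and the CArG box in 1.14%. The lists of genes for functions that NRF2 drives held 22 genes that rose, among them CHAC1, which is also on the ATF4 list. These lists go by function, and control of each member by NRF2 was not tested. Of these 22, 18 had a promoter in the table, and 3 of the 18 (GCLM, TXNRD1 and ME1) held the antioxidant element core. The promoter of OSGIN1 held instead a TPA response element (TGANTCA), the AP-1 site, as TGACTCA at -97 to -91. ATF3 held the composite element at -191 to -184, which made 2 of 7 ATF4 list genes that rose. The CArG box was found in EGR1 but in none of the other 10 of 11 AP-1 and immediate early genes that fell and had a promoter in the table, FOS and FOSB included. GCLM, TXNRD1, ME1, ATF3 and EGR1 were picked out after their letters were seen, and CHAC1 and OSGIN1 by the size of their change. SRXN1, TRIB3, FOSB and FOS were picked by size of change too, and their promoters, not shown, held none of the motifs searched.

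NRF2 (gene NFE2L2) drives genes that make and recycle glutathione and thioredoxin, detoxify reactive compounds and handle haem and iron. Of 19 measured genes for glutathione and thioredoxin, 10 rose and 1 fell, against 1.83% and 1.57% of all genes, with a median log2 change of 0.23 over the list. The 10 include CHAC1, which is also counted in the ATF4 list below. SRXN1, the sulfiredoxin that reactivates oxidised peroxiredoxins, had signals of 2275, 2298 and 2334 with MLN4924, against 542, 565 and 614 with DMSO (log2 change 1.95 ± 0.07 (SE), adjusted p = 8.47e-15). SLC7A11, the cystine importer of system xc-, had 3416, 3568 and 3416 with MLN4924, against 862, 985 and 996 with DMSO (1.84 ± 0.08 (SE), adjusted p = 5.56e-14). Its partner chain SLC3A2 rose by less (0.52 ± 0.07 (SE), adjusted p = 4.14e-05). For both subunits of glutamate-cysteine ligase, the enzyme that limits glutathione synthesis, the signal was higher on every MLN4924 array. The modifier subunit GCLM had 3139, 3048 and 2967 with MLN4924 and 1435, 1367 and 1298 with DMSO (1.14 ± 0.08 (SE), adjusted p = 1.15e-09), and the catalytic subunit GCLC had 1133, 888 and 1143 with MLN4924 and 779.5, 718 and 695 with DMSO (0.50 ± 0.08 (SE), adjusted p = 0.000243). Thioredoxin reductase TXNRD1 had 7834, 7264 and 7390 with MLN4924, against 3149, 3114 and 3002 with DMSO (1.27 ± 0.06 (SE), adjusted p = 9.08e-13). Glutathione reductase GSR and glutaredoxin GLRX rose by 0.53 and 0.41 (adjusted p = 0.000439 and 0.00367). TXNIP, which binds and inhibits thioredoxin, was the member that fell (-0.49 ± 0.10 (SE), adjusted p = 0.00239). TXN itself (0.09, adjusted p = 0.773) and PRDX1 (0.07, 0.529) did not pass the test. GCLC and GLRX were not called in the 6-array fit, and averaging all probe sets of a gene did not call TXNIP (adjusted p = 0.053, 0.000536 to 0.053 over all alternatives).

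HMOX1, haem oxygenase 1, which breaks haem down to biliverdin, iron and carbon monoxide, changed more than any other gene. Its signals were 3665, 3866 and 3670 on MLN4924 arrays, against 207, 220.5 and 196 on DMSO arrays (3.97 ± 0.10 (SE), adjusted p = 8.42e-19). The lowest MLN4924 array thus lay far above the highest DMSO array. Among 10 genes for haem and iron it was joined only by FTL, the ferritin light chain (0.28 ± 0.08 (SE), adjusted p = 0.0406), whose call was lost under 9 of the 16 alternatives that tested it, without MLN4924 replicate 1 or 3 or DMSO replicate 1, 2 or 3, each left out alone (adjusted p = 0.0767 to 0.261) among them, within 1.16e-05 to 0.282 over all alternatives. Biliverdin reductase BLVRB (0.26, adjusted p = 0.319) and ferrochelatase FECH (0.36, 0.0518) did not pass, though FECH was called under 5 alternatives (adjusted p = 0.0237 to 0.327 over all of them). Of 18 genes for detoxification and export, 8 rose and none fell in the limma test (0 were lower at an unadjusted p under 0.05). ABCC2, an exporter of glutathione conjugates, had 288, 271 and 257 with MLN4924 and 114, 117 and 119.7 with DMSO (1.03 ± 0.07 (SE), adjusted p = 8.89e-10), and OSGIN1, an oxidative stress-induced growth inhibitor, had 186, 116 and 158 with MLN4924 and 18.1, 23.4 and 10.3 with DMSO (1.90 ± 0.15 (SE), adjusted p = 7.25e-09). The aldo-keto reductases AKR1C1 (0.94), AKR1C3 (0.79), AKR1B10 (0.69) and AKR1C2 (0.66) rose as well. AKR1C1, AKR1C2 and AKR1C3 are close paralogs that can share hybridization, and without the probe sets marked as less specific AKR1C1 and AKR1C2 were not called (adjusted p = 0.601 and 0.955; 2.91e-07 to 0.601 and 1.60e-07 to 0.955 over all alternatives), where the probe sets that remained were dim. AKR1B10 was not called with 1 added to the signal (adjusted p = 0.119, 0.000612 to 0.119 over all alternatives). NQO1, the quinone reductase often used to follow NRF2, had 6680, 6032 and 6488 with MLN4924, against 5521, 5584 and 4902 with DMSO (0.26 ± 0.07 (SE), adjusted p = 0.0222). That call was lost without MLN4924 replicate 1 or 3 or DMSO replicate 3, each left out alone (adjusted p = 0.0832 to 0.169), and in the 6-array fit (adjusted p = 0.217), within 8.15e-07 to 0.217 over all alternatives. The 2 other bright probe sets of NQO1 each gave 0.58, and averaging all of its probe sets gave 0.47. Of 5 genes for NADPH supply, the malic enzyme ME1 (0.36, adjusted p = 0.00177) and transaldolase TALDO1 (0.32, 0.000978) rose. Neither was called in the 6-array fit, and ME1 also not with probe sets averaged (adjusted p = 0.0942, 0.000584 to 0.0942 over all alternatives).

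Transcripts of NRF2 and of the core of the ligase that degrades it did not pass the test. NFE2L2 itself had 1586, 1531 and 1521 with MLN4924, against 1554, 1445 and 1444 with DMSO (0.06 ± 0.07 (SE), adjusted p = 0.832), and these ranges overlapped. CUL3 (0.09, adjusted p = 0.509) and RBX1 (-0.05, 0.868), the cullin and RING subunits, did not pass either. Of 11 genes on the list, 4 rose. SQSTM1, the autophagy receptor that binds KEAP1, had 1619, 1567 and 1583 with MLN4924 and 1130, 1196 and 1200 with DMSO (0.43 ± 0.07 (SE), adjusted p = 0.000264). MAFF, a small MAF partner, rose by 0.38 (adjusted p = 0.000216), but not in the 6-array fit or with probe sets averaged (adjusted p = 0.373), within 5.88e-05 to 0.373 over all alternatives. KEAP1 rose by 0.47 (adjusted p = 0.0149), a call lost without MLN4924 replicate 2 or 3 or DMSO replicate 1 or 2, each left out alone (adjusted p = 0.0507 to 0.0639), within 0.00516 to 0.0639 over all alternatives. BACH1, the repressor of HMOX1 and itself an NRF2 target, stood at 0.36 (adjusted p = 0.0576) and was called under 4 alternatives (0.0208 to 0.458 over all of them). TRIM16, an E3 ligase and known NRF2 target outside these lists, had 1199, 1362 and 1264 with MLN4924, against 392, 412 and 407 with DMSO (1.58 ± 0.12 (SE), adjusted p = 1.49e-09). NMRAL2P, a transcribed pseudogene under NRF2 control, had 283, 211 and 236 with MLN4924, against 80.4, 70.1 and 70.3 with DMSO (1.38 ± 0.10 (SE), adjusted p = 1.26e-09). For both, the groups lay well apart.

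**Figure D2:**
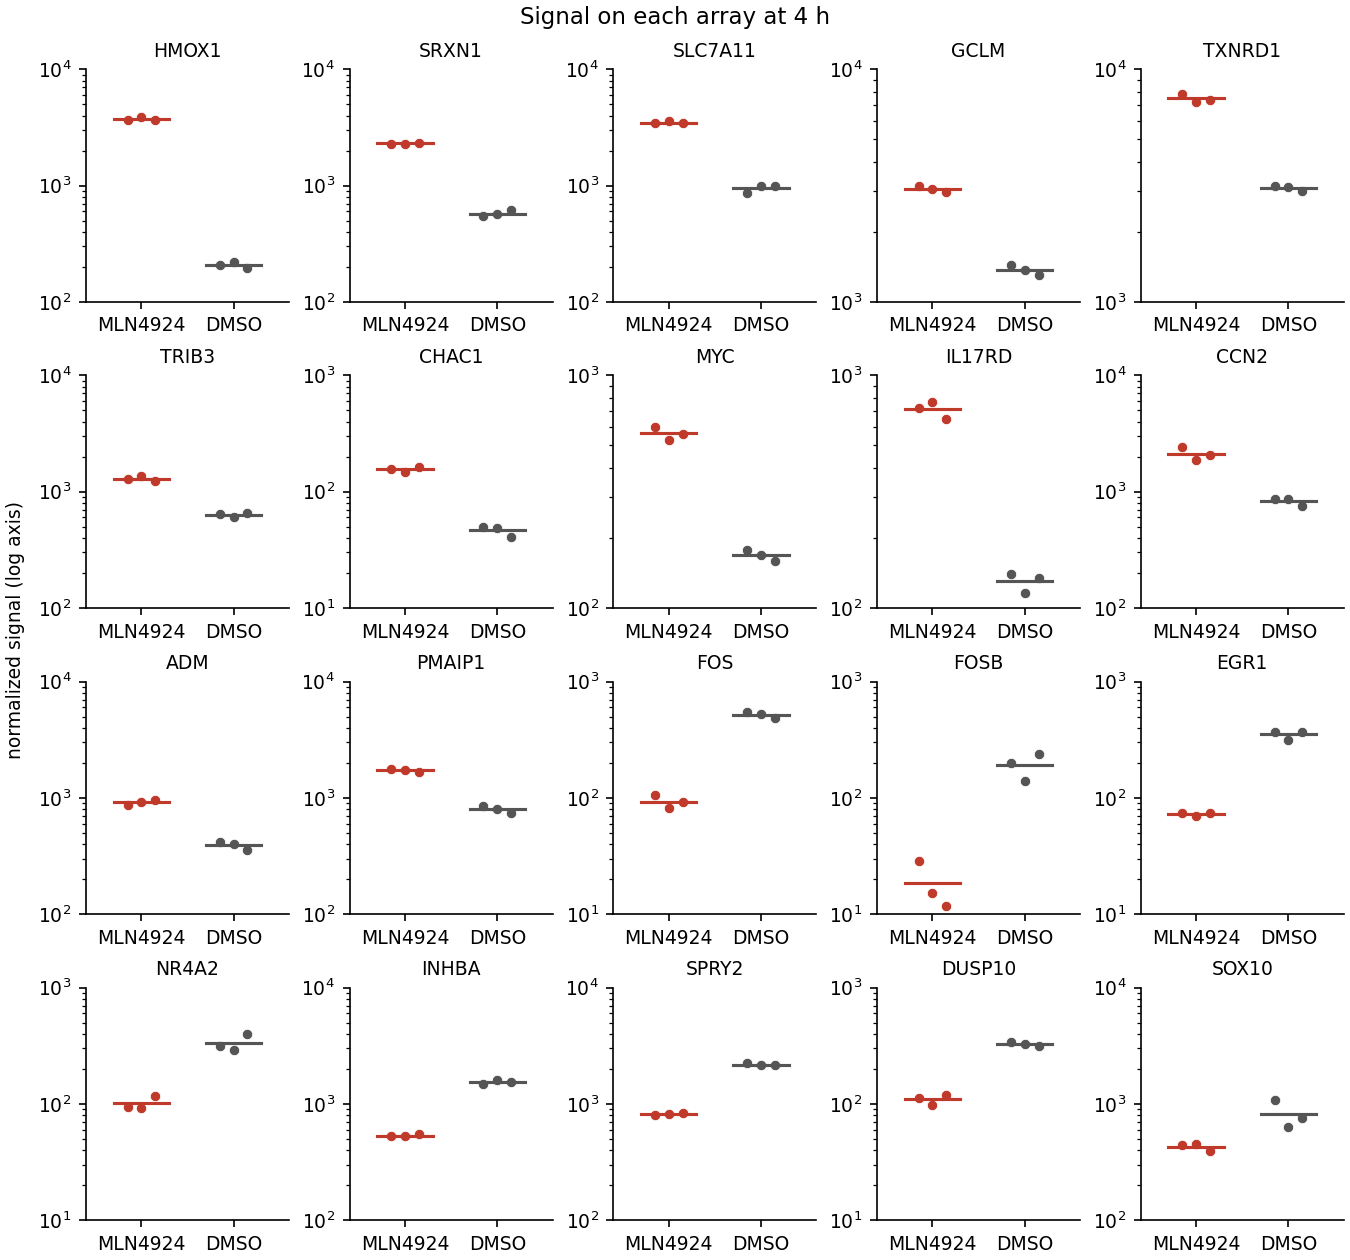
Normalized signal (log axis) on each of the 3 MLN4924 arrays (red, left) and 3 DMSO arrays (grey, right) of 4 h for 20 genes; lines are group means. The groups do not overlap for any of these genes, and the gap is widest for HMOX1 (3665, 3866 and 3670 with MLN4924, 207, 220.5 and 196 with DMSO).

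ATF4 is translated when the kinases of the integrated stress response phosphorylate eIF2 alpha, and it turns on amino acid supply, redox genes and feedback regulators. Of 17 ATF4-linked factors and effectors, 7 rose and none fell in the limma test (2 were lower at an unadjusted p under 0.05), with a median log2 change of 0.19. CHAC1, which breaks down glutathione and is counted in the glutathione list too, had 157, 148 and 163 with MLN4924 and 49.3, 48.9 and 41 with DMSO (1.26 ± 0.08 (SE), adjusted p = 2.84e-10). TRIB3, a pseudokinase that dampens ATF4, had 1294, 1360 and 1236 with MLN4924 and 637, 609 and 656 with DMSO (1.00 ± 0.06 (SE), adjusted p = 3.09e-11). Each was higher on all MLN4924 arrays than on any DMSO array. ATF3, a stress-induced repressor, had 169.6, 160.3 and 136 with MLN4924, against 66.7, 66.6 and 73.7 with DMSO (0.89 ± 0.11 (SE), adjusted p = 5.86e-06). It was not called from the probe set used when less specific ones were left out (0.32, adjusted p = 0.426, 2.42e-06 to 0.426 over all alternatives). The lipoprotein receptor VLDLR and the bZIP factors CEBPG and JDP2 rose by 0.80, 0.64 and 0.75 (adjusted p = 1.92e-05, 5.65e-05 and 0.000952). ATF4 mRNA (0.09 ± 0.06 (SE), adjusted p = 0.607) and DDIT3, encoding CHOP (0.06 ± 0.18 (SE), adjusted p = 0.952), did not pass the test.

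Amino acid supply is the metabolic arm of the same response. Of 13 genes for amino acid synthesis, 3 rose: cystathionine gamma-lyase CTH (0.55, adjusted p = 0.00337), asparagine synthetase ASNS (0.40, 0.000263) and the mitochondrial folate enzyme MTHFD2 (0.31, 0.000101). None of these calls held under all alternatives, with CTH and MTHFD2 lost in the 6-array fit and ASNS when its less specific probe set was left out (adjusted p = 0.949, 4.37e-05 to 0.949 over all alternatives), where only a dim one remained (4.24 with MLN4924 and 3.40 with DMSO). PHGDH and PSAT1, at the head of serine synthesis, stood at 0.24 and 0.14 (adjusted p = 0.245 and 0.508). PSAT1 was called with signals as deposited (0.25, adjusted p = 0.0376), with arrays centred (0.31, 0.0308) and with probe sets averaged (0.39, 0.000158), within 0.000158 to 0.84 over all alternatives, and its other probe set gave 0.64. Among 13 amino acid transporters 4 rose, SLC7A11, SLC3A2, SLC7A1 (0.33, 0.00757) and SLC38A1 (0.33, 0.0125), and the call of SLC7A1 was lost without MLN4924 replicate 2 (adjusted p = 0.0507), within 0.0024 to 0.58 over all alternatives. SLC38A1 was lost without MLN4924 replicate 2 or 3 or DMSO replicate 1 or 3, each left out alone (adjusted p = 0.0528 to 0.0675), within 0.00335 to 0.783. None of 17 cytosolic aminoacyl-tRNA synthetases passed in limma, where 5 had an unadjusted p under 0.05, and alternatives called 0 to 3. Their changes ran from -0.25 to 0.21. Of 20 genes of the unfolded protein response only XBP1 rose (0.51, adjusted p = 0.000908), a call lost in the 6-array fit and with probe sets averaged (adjusted p = 0.122), within 0.00014 to 0.122 over all alternatives. The chaperone HSPA5 stood at 0.07 (adjusted p = 0.844). Among 13 cytosolic heat shock genes, the co-chaperone DNAJB4 had 708, 637 and 719.7 with MLN4924 and 286, 249 and 220.1 with DMSO (1.35 ± 0.09 (SE), adjusted p = 1.22e-10). DNAJB1 rose too (0.35, adjusted p = 0.00192), though not in the 6-array fit.

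Immediate early genes are induced within minutes of growth factor or stress signals, and their mRNAs are short-lived. AP-1 factors are dimers of FOS, JUN and ATF proteins. Of 10 measured AP-1 genes, 3 rose and 3 fell. FOS had 105, 82.2 and 91.2 with MLN4924, against 550.5, 521 and 482 with DMSO (-2.14 ± 0.20 (SE), adjusted p = 9.69e-08). FOSB had 28.7, 15.1 and 11.8 with MLN4924, against 201, 141 and 237 with DMSO (-2.14 ± 0.30 (SE), adjusted p = 3.49e-05). The groups were far apart in both, and FOSB was below the median signal of all genes, 36.6, on every MLN4924 array. JUND fell by less (-0.49 ± 0.11 (SE), adjusted p = 0.0109), a call lost without MLN4924 replicate 3 or DMSO replicate 3, each left out alone (adjusted p = 0.0563 to 0.0776), in the 6-array fit and with probe sets averaged (adjusted p = 0.181), within 0.00462 to 0.181 over all alternatives. FOSL2 rose (0.61 ± 0.11 (SE), adjusted p = 0.000767), as did ATF3 and JDP2 above, and was not called in the 6-array fit. JUN (-0.04, adjusted p = 0.958), JUNB (-0.17, 0.777) and FOSL1 (-0.07, 0.898) did not pass.

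Of 26 other immediate early factors, 12 fell and 5 rose, with a median log2 change of -0.27. EGR1, a zinc finger factor, had 73.3, 69.1 and 74.7 with MLN4924, against 369.6, 314 and 370.4 with DMSO (-1.87 ± 0.15 (SE), adjusted p = 6.32e-09). The orphan nuclear receptor NR4A2 had 94.2, 92.2 and 116 with MLN4924, against 312, 288 and 399 with DMSO (-1.45 ± 0.12 (SE), adjusted p = 8.43e-09). In each the highest MLN4924 array lay below the lowest DMSO array. EGR3 had 76.1, 90.6 and 97 with MLN4924, against 315, 194 and 158 with DMSO (-1.04 ± 0.22 (SE), adjusted p = 0.00545). It was not called without DMSO replicate 1 (adjusted p = 0.0634) or in the 6-array fit (adjusted p = 0.0909), within 0.00245 to 0.0909 over all alternatives. The helix-loop-helix inhibitors ID3 and ID1, the survival factor IER3 and the antiproliferative BTG1 fell by 0.88, 0.60, 0.55 and 0.58 on the log2 scale (adjusted p = 0.000321, 0.000841, 1.43e-05 and 8.66e-07). A second bright probe set of BTG1 gave -0.57, and it was not called when only a dim one was left (-0.53, adjusted p = 0.0617, 4.07e-08 to 0.0617 over all alternatives), with 15.3 with MLN4924 and 36.8 with DMSO. Other members of the list rose. MYC had 601, 529 and 557 with MLN4924, against 177, 169 and 159 with DMSO (1.57 ± 0.09 (SE), adjusted p = 3.09e-11). CCN2, the connective tissue growth factor, had 2408, 1868 and 2071 with MLN4924, against 856, 869.7 and 749 with DMSO (1.32 ± 0.10 (SE), adjusted p = 3.03e-09). SRF (0.35, adjusted p = 0.408) and MCL1, a survival factor of the BCL2 family (-0.27, 0.0761), did not pass. MCL1 was called under 4 alternatives (adjusted p = 0.00022 to 0.655 over all of them), with -0.28 when probe sets were averaged and -0.89 from the probe set used when less specific ones were left out. All 4 called genes among 12 Krüppel-like factors fell, KLF6 (-0.61, adjusted p = 0.000286) and KLF9 (-0.48, 0.00235) under every alternative that tested them. At an unadjusted p under 0.05 in limma, 5 of the 12 were lower and 2 higher, against 7.07% and 6.52% of all genes. Changes on this list ran from -0.63 to 0.90.

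Of 19 mRNA decay factors and short-lived regulators, 5 fell and 2 rose. TOB1, which recruits deadenylase to transcripts, fell by 0.55 on the log2 scale (adjusted p = 0.00069), and ZFP36L1, which binds AU-rich elements, by 0.48 (0.00402). ZC3H12C, of the regnase family of RNases, rose by 0.64 (0.000217). ZFP36L1 and ZC3H12C were not called in the 6-array fit, and TOB1 not with probe sets averaged (adjusted p = 0.0619, 0.000207 to 0.0619 over all alternatives). No member of this list kept its call under all 17 alternatives.

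A375 cells carry an activating BRAF mutation, and ERK signalling in such cells turns on its own inhibitors: the Sprouty and SPRED adaptors, IL17RD and the dual-specificity phosphatases. Of 27 measured feedback genes and outputs, 5 rose and 6 fell. SPRY2 had 798, 812 and 829 with MLN4924, against 2239, 2157 and 2143 with DMSO (-1.39 ± 0.07 (SE), adjusted p = 3.74e-12). IL17RD (also SEF), a membrane inhibitor of FGF receptor and ERK signalling, had 726, 767 and 647 with MLN4924, against 139.7, 116 and 134 with DMSO (2.20 ± 0.16 (SE), adjusted p = 1.11e-09). These inhibitors thus stood at opposite ends of the list, both with non-overlapping groups. TGFA, a ligand of the EGF receptor, had 1745, 1444 and 1736 with MLN4924, against 3325, 3218 and 3017 with DMSO (-0.95 ± 0.10 (SE), adjusted p = 3.82e-07). The receptor inhibitor ERRFI1, PHLDA1 and the ETS factor ETV1 fell by 0.63, 0.51 and 0.64 on the log2 scale (adjusted p = 6.86e-06, 7.65e-05 and 0.000467). Other bright probe sets of ETV1 gave changes from -0.27 to 0.04, none of them called. Averaging all of its probe sets gave -0.24 and kept the call. Cyclin D1, CCND1, rose (0.66 ± 0.10 (SE), adjusted p = 8.32e-05). Several genes closely tied to ERK output did not pass: SPRY1 (0.16, adjusted p = 0.625), ETV5 (-0.08, 0.795) and SPRED1 (-0.24, 0.14). The other 4 called members, with changes from -0.53 to 0.45, each lost the call when some single array was left out.

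Among 11 MAP kinase phosphatases, 1 rose and 2 fell. DUSP10, which acts on p38 and JNK, had 113, 97.5 and 119.6 with MLN4924, against 343, 329.7 and 312 with DMSO (-1.34 ± 0.09 (SE), adjusted p = 1.80e-10). DUSP1, itself an immediate early gene, had 245, 263 and 228 with MLN4924, against 463, 453 and 457 with DMSO (-0.82 ± 0.10 (SE), adjusted p = 8.86e-06), but was not called with its probe sets averaged (adjusted p = 0.529, 2.04e-06 to 0.529 over all alternatives). The ERK phosphatases DUSP6 (0.08, adjusted p = 0.893) and DUSP4 (0.17, 0.399) did not pass, but with probe sets averaged both were called (0.26 and 0.31, adjusted p = 0.00981 and 0.00119, within 0.00981 to 0.998 and 0.00119 to 0.718 over all alternatives). Other bright probe sets of DUSP4 gave 0.30 and 0.45. Of 25 growth factor ligands and receptors, 1 rose and 2 fell, TGFA and the neuregulin receptor ERBB3, which had 1377, 1433 and 1314 with MLN4924 and 2035, 2267 and 2342 with DMSO (-0.67 ± 0.08 (SE), adjusted p = 8.86e-06). MET (0.27, 0.602) did not pass.

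**Figure D3:**
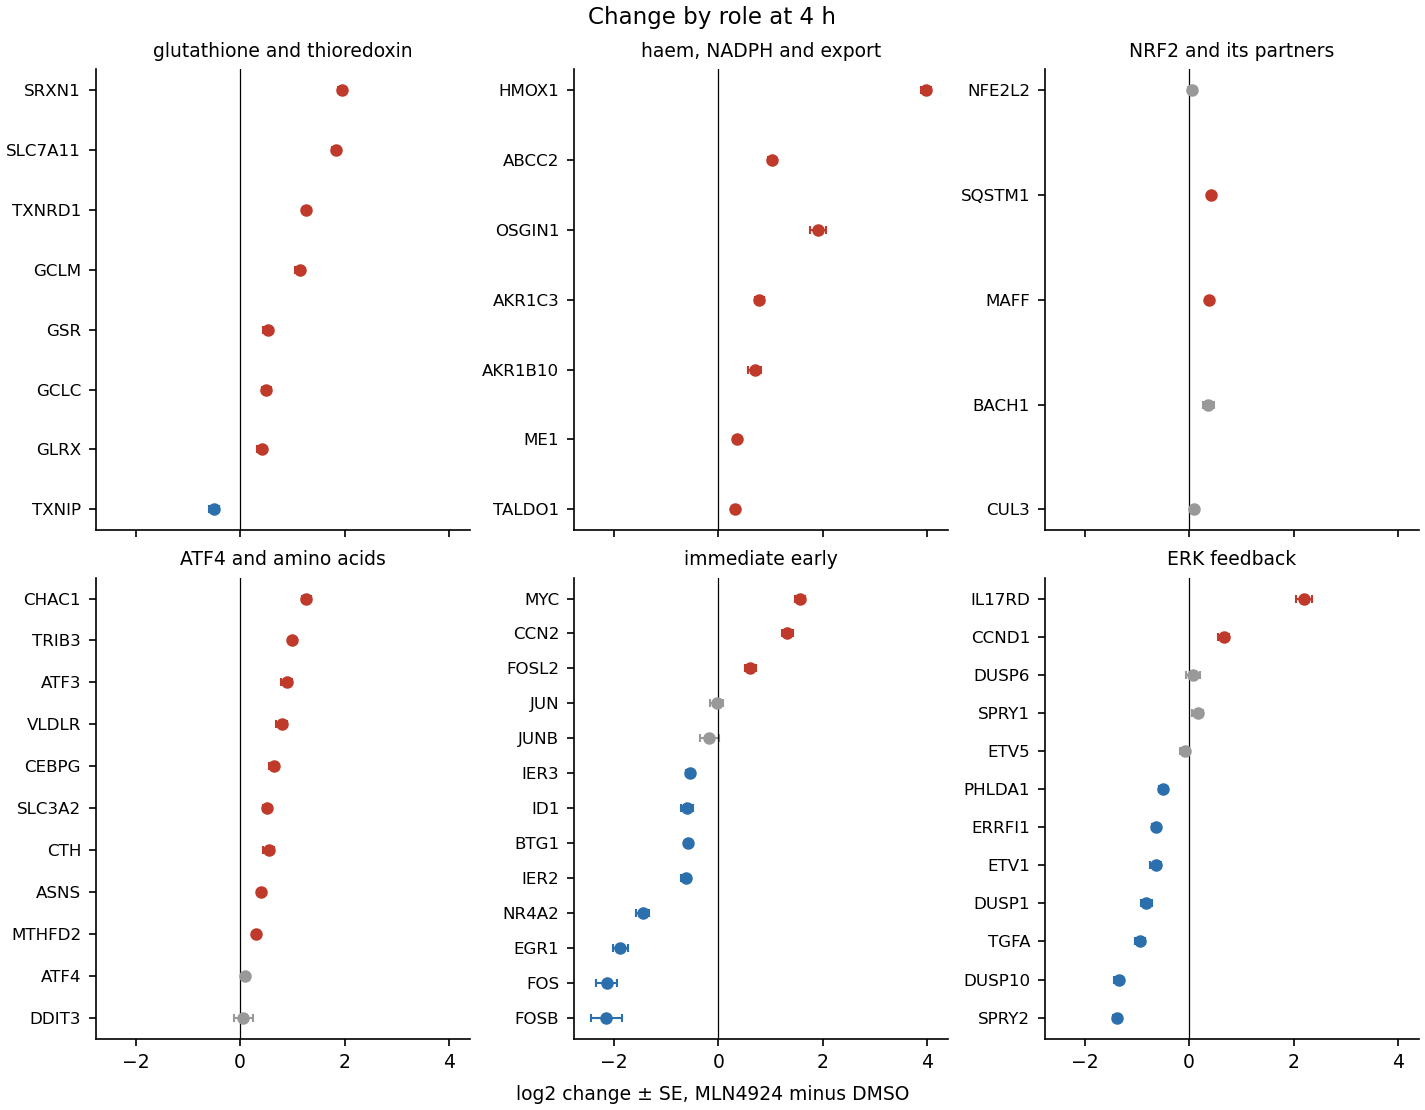
Log2 change, MLN4924 minus DMSO, of genes grouped by role; points are limma estimates and bars their SE, red where the gene rose, blue where it fell and grey where it did not pass. The panels hold a choice of list members. Of the genes shown from the NRF2 lists, which go by function, all but TXNIP lie to the right of 0, while members of the same lists that are not shown reach down to -0.66. The immediate early and ERK feedback panels spread to both sides.

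Ligands and targets of the activin, BMP and TGF-beta pathways comprised 27 measured genes, of which 3 rose and 5 fell. INHBA, the subunit of activin A, had 524, 526 and 548 with MLN4924, against 1488, 1604 and 1536 with DMSO (-1.48 ± 0.09 (SE), adjusted p = 6.53e-11). FST, follistatin, which binds activin, had 1334, 1272 and 1359 with MLN4924, against 2352, 2252 and 2386 with DMSO (-0.80 ± 0.08 (SE), adjusted p = 3.19e-07). The ligand and its antagonist thus fell together, each below every DMSO array. ID1 and ID3, BMP targets described above, fell as well. SMURF2, a ubiquitin ligase for SMADs, rose (0.84 ± 0.09 (SE), adjusted p = 7.60e-07), and its 3 other probe sets gave 0.72, 0.80 and 0.84. When the less specific probe sets were left out, SMURF2 was read from the one at 0.80 and was not called (adjusted p = 0.313, 4.60e-08 to 0.313 over all alternatives). SMAD7 (0.24, adjusted p = 0.394) and TGFB1 (-0.17, 0.552) did not pass. TGFB1 was called with probe sets averaged (-0.42, adjusted p = 0.0116) and from a dim probe set when less specific ones were left out (-0.67, 0.0117), within 0.0116 to 0.87 over all alternatives.

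For WNT and NOTCH, 4 of 22 genes rose and 3 fell. WNT5A, a ligand mostly of beta-catenin-independent signalling, had 1901, 1710 and 1785 with MLN4924, against 680.4, 691 and 708 with DMSO (1.33 ± 0.10 (SE), adjusted p = 1.26e-09). AXIN2, a scaffold of the beta-catenin destruction complex and a target of the pathway, had 65, 81.1 and 60.2 with MLN4924, against 22.9, 21 and 9.31 with DMSO (1.02 ± 0.10 (SE), adjusted p = 2.07e-07). With this dim probe set the change ran from 0.37 to 1.98 over the alternatives that tested it, all called. ZNRF3, a ligase that removes WNT receptors, rose by 0.56 (adjusted p = 6.32e-05). DKK1, a secreted WNT inhibitor, fell by 0.57 on the log2 scale (1.38e-07). Of the NOTCH effectors HEY1 rose (0.76 ± 0.10 (SE), adjusted p = 2.14e-05) and HES1 fell (-0.63 ± 0.13 (SE), adjusted p = 0.00434), HES1 not in the 6-array fit. HES1 was also not called when less specific probe sets were left out (adjusted p = 0.993, 0.000127 to 0.993 over all alternatives), where only a dim one remained (1.80 with MLN4924 and 1.89 with DMSO). NOTCH1 (-0.35, 0.494) did not pass.

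YAP and TAZ with TEAD factors, and SRF with MRTF, turn on genes in response to cell shape and the state of the cytoskeleton. Of 26 measured targets, 7 rose and none fell in limma (1 was lower at an unadjusted p under 0.05). ANKRD1 had 272, 344 and 297 with MLN4924, against 67.2, 94.1 and 68.1 with DMSO (1.64 ± 0.12 (SE), adjusted p = 1.77e-09). CCN2 is described above, and its relative CCN1 rose (0.64 ± 0.12 (SE), adjusted p = 0.00125), though not in the 6-array fit. LATS2, a kinase that restrains YAP, rose by 0.55 (adjusted p = 1.92e-05). The cytoskeletal SRF targets ACTA2 (-0.08, 0.848) and MYL9 (-0.15, 0.877) did not pass.

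Genes of ribosome production, which MYC is known to drive, were examined beside MYC itself. Of 20 genes for ribosome biogenesis, 1 passed: BYSL, for small subunit assembly (0.38, adjusted p = 0.0038), and not in the 6-array fit. At an unadjusted p under 0.05, 7 of the 20 were higher and none lower in limma, against 6.52% and 7.07% of all genes, with a median log2 change of 0.10. NCL (-0.14, adjusted p = 0.72) and FBL (0.12, 0.349), of the nucleolus, did not pass. None of 13 ribosomal protein genes was called, 0 of them at an unadjusted p under 0.05 and 0 under any alternative, with changes from -0.03 to 0.13. Of 13 genes on a list of MYC, MAX and genes linked to them, MYC rose and MAZ fell (-0.48, 0.0402). The call of MAZ was lost without MLN4924 replicate 1, 2 or 3 or DMSO replicate 2 or 3, each left out alone (adjusted p = 0.082 to 0.214), within 0.0228 to 0.493 over all alternatives. MYC's partner MAX (0.15, 0.358) did not pass.

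HIF-1 alpha is degraded through the CUL2 receptor VHL when oxygen is present, and its targets adapt metabolism and vessels to hypoxia. Of 28 HIF factors and targets, 5 rose and none fell in limma (3 were lower at an unadjusted p under 0.05). ADM, the vasodilator adrenomedullin, had 866, 925 and 958 with MLN4924, against 418, 399.5 and 358 with DMSO (1.16 ± 0.07 (SE), adjusted p = 3.02e-11). PDK1, which restrains pyruvate dehydrogenase, had 546, 526 and 548 with MLN4924, against 299, 307 and 278 with DMSO (0.81 ± 0.08 (SE), adjusted p = 3.82e-07). Both groups of arrays stood clear of each other. SLC2A3, the glucose transporter GLUT3, the mitophagy receptor BNIP3 and NDRG1 rose by 0.54, 0.45 and 0.41 (adjusted p = 0.0019, 0.0043 and 0.00157), with none of the 3 called in the 6-array fit. VEGFA (0.15, adjusted p = 0.677), SLC2A1 (0.28, 0.398) and ANKRD37 (-0.30, 0.106), widely used HIF targets, did not pass, though VEGFA was called with probe sets averaged (0.33, adjusted p = 0.00677, 0.00677 to 0.89 over all alternatives). HIF1A mRNA had 5107, 4882 and 5040 with MLN4924 and 5032, 4873 and 5144 with DMSO, a difference under the spread between arrays (adjusted p = 0.994). None of 17 glycolysis enzymes was called in limma, where 2 had an unadjusted p under 0.05 and alternatives called 0 to 1.

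Cullin-RING ligases degrade several cell cycle proteins, so cell cycle transcripts were examined too. Of 44 genes for G1/S and replication, 4 rose and none fell in limma (2 were lower at an unadjusted p under 0.05), so that 9.09% were called, against 3.39% of all genes. All 44 had a group mean above the median signal, where calls were more frequent. Besides CCND1, cyclin E1, CCNE1, had 279.8, 280.2 and 304 with MLN4924 and 175, 195 and 186 with DMSO (0.56 ± 0.09 (SE), adjusted p = 0.000274), and cyclin E2, CCNE2, had 985, 878 and 949.9 with MLN4924 and 761, 738 and 731 with DMSO (0.32 ± 0.07 (SE), adjusted p = 0.00756). CCNE2 was not called without MLN4924 replicate 1 (adjusted p = 0.0517) or in the 6-array fit (adjusted p = 0.0952), within 2.27e-05 to 0.0952 over all alternatives. CDT1, whose protein accumulates when CUL4 and CUL1 ligases are blocked, stood at 0.07 (adjusted p = 0.955) and E2F1 at 0.35 (0.495). Of 30 genes for G2/M and mitosis (3.33% called) only CDC25B was called and fell (-0.42, 0.0496), a call lost under 12 of the 16 alternatives that tested it, without MLN4924 replicate 1, 2 or 3 or DMSO replicate 1, 2 or 3, each left out alone (adjusted p = 0.0931 to 0.208) among them, within 0.0286 to 0.244 over all alternatives. CCNB1 stood at -0.03 (adjusted p = 0.902). Of 7 CDK inhibitors 1 fell, CDKN1B, which encodes p27 (-0.28, 0.0272), a call lost without MLN4924 replicate 1 or 3 or DMSO replicate 1 or 2, each left out alone (adjusted p = 0.0922 to 0.116), within 0.0149 to 0.22 over all alternatives. CDKN1A, which encodes p21, was at -0.39 (0.133). Of 15 histone genes 2 fell and none rose, and neither call held in every fit that left out a single array. Of 28 repair and checkpoint genes (3.57% called, near the 3.39% of all genes) 1 rose, the exonuclease EXO1 (0.59, 2.31e-05), not called in the 6-array fit. At an unadjusted p under 0.05 in limma, 9 of the 28 were higher and 1 lower, against 6.52% and 7.07% of all genes.

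Among 29 genes on the p53 target list, 3 rose and 1 fell (13.8% called, against 3.39% of all genes). The polo-like kinase PLK2 and GADD45A rose by 0.42 and 0.49 (adjusted p = 0.000841 and 0.00355), neither of them called in the 6-array fit. MDM2 (0.10, adjusted p = 0.745) and TP53INP1 (-0.26, 0.311) did not pass. Of 19 BCL2 family genes, 3 rose. PMAIP1, encoding the pro-death protein NOXA and also an ATF4 target, had 1773, 1736 and 1674 with MLN4924, against 848, 800.5 and 743 with DMSO (1.09 ± 0.07 (SE), adjusted p = 8.21e-11). PMAIP1 was not placed on the p53 target list used here. The range of changes on that list, -0.39 to 0.49, thus leaves PMAIP1 out and does not cover every p53 target. BCL2A1, an anti-death member, rose by 0.55 (adjusted p = 0.000138). BCL2L1 (0.39, 0.171) did not pass, nor did BCL2L11, encoding BIM (0.14, 0.847). BCL2L11 was called with probe sets averaged (0.31, adjusted p = 0.000974) and from the probe set used when less specific ones were left out (0.57, 0.00466), within 0.000974 to 0.985 over all alternatives. Of 18 death receptor and caspase genes 1 was called, FAS (0.28, 0.0152), whose call was lost under 7 of 17 alternatives, without MLN4924 replicate 2 or 3 or DMSO replicate 2 or 3, each left out alone (adjusted p = 0.0568 to 0.0755) among them, within 0.00879 to 0.972 over all alternatives.

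Of the transcripts of the inhibited pathway itself, 1 of 11 passed the test. The subunits of the NEDD8-activating enzyme, NAE1 and UBA3, stood at 0.08 (adjusted p = 0.579) and -0.19 (0.672), and NEDD8 at 0.02 (0.946). NAE1 had 3203, 3501 and 3122 with MLN4924, against 3045, 2951 and 3272 with DMSO. The gene that rose was DCUN1D2, a co-ligase for cullin neddylation (0.43 ± 0.10 (SE), adjusted p = 0.0208), no longer called without MLN4924 replicate 1 or 3 or DMSO replicate 1, each left out alone (adjusted p = 0.0544 to 0.134), within 0.0116 to 0.134 over all alternatives. None of 19 cullins, RING subunits and partners and none of 9 subunits of the COP9 signalosome, which removes NEDD8 from cullins, was called in limma or under any alternative. At an unadjusted p under 0.05, 1 and 0 of them passed. No proteasome subunit of 28 was called in limma (1 at an unadjusted p under 0.05, 0 to 1 under the alternatives).

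Substrate receptors changed in a few cases. FBXO30, an F-box receptor of CUL1 ligases, had 911, 879 and 894 with MLN4924, against 376, 402 and 406 with DMSO (1.12 ± 0.05 (SE), adjusted p = 6.08e-14), and was the member of 28 F-box and SOCS box genes (1 rose, 2 fell) called under every alternative. SOCS2, a SOCS box receptor that restrains growth hormone signalling, fell by 0.44 on the log2 scale (adjusted p = 0.000397), though it was not called in the 6-array fit. SKP2 (0.12, adjusted p = 0.445), FBXW7 (0.18, 0.347) and BTRC (0.11, 0.717) did not pass. Of 36 BTB and DCAF receptors 2 rose and 2 fell, KEAP1 among the rises, and none was called under every alternative. DTL, the CUL4 receptor for CDT1 also called CDT2, rose by 0.39 (adjusted p = 0.00298), though it was not called in the 6-array fit.

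**Figure D4:**
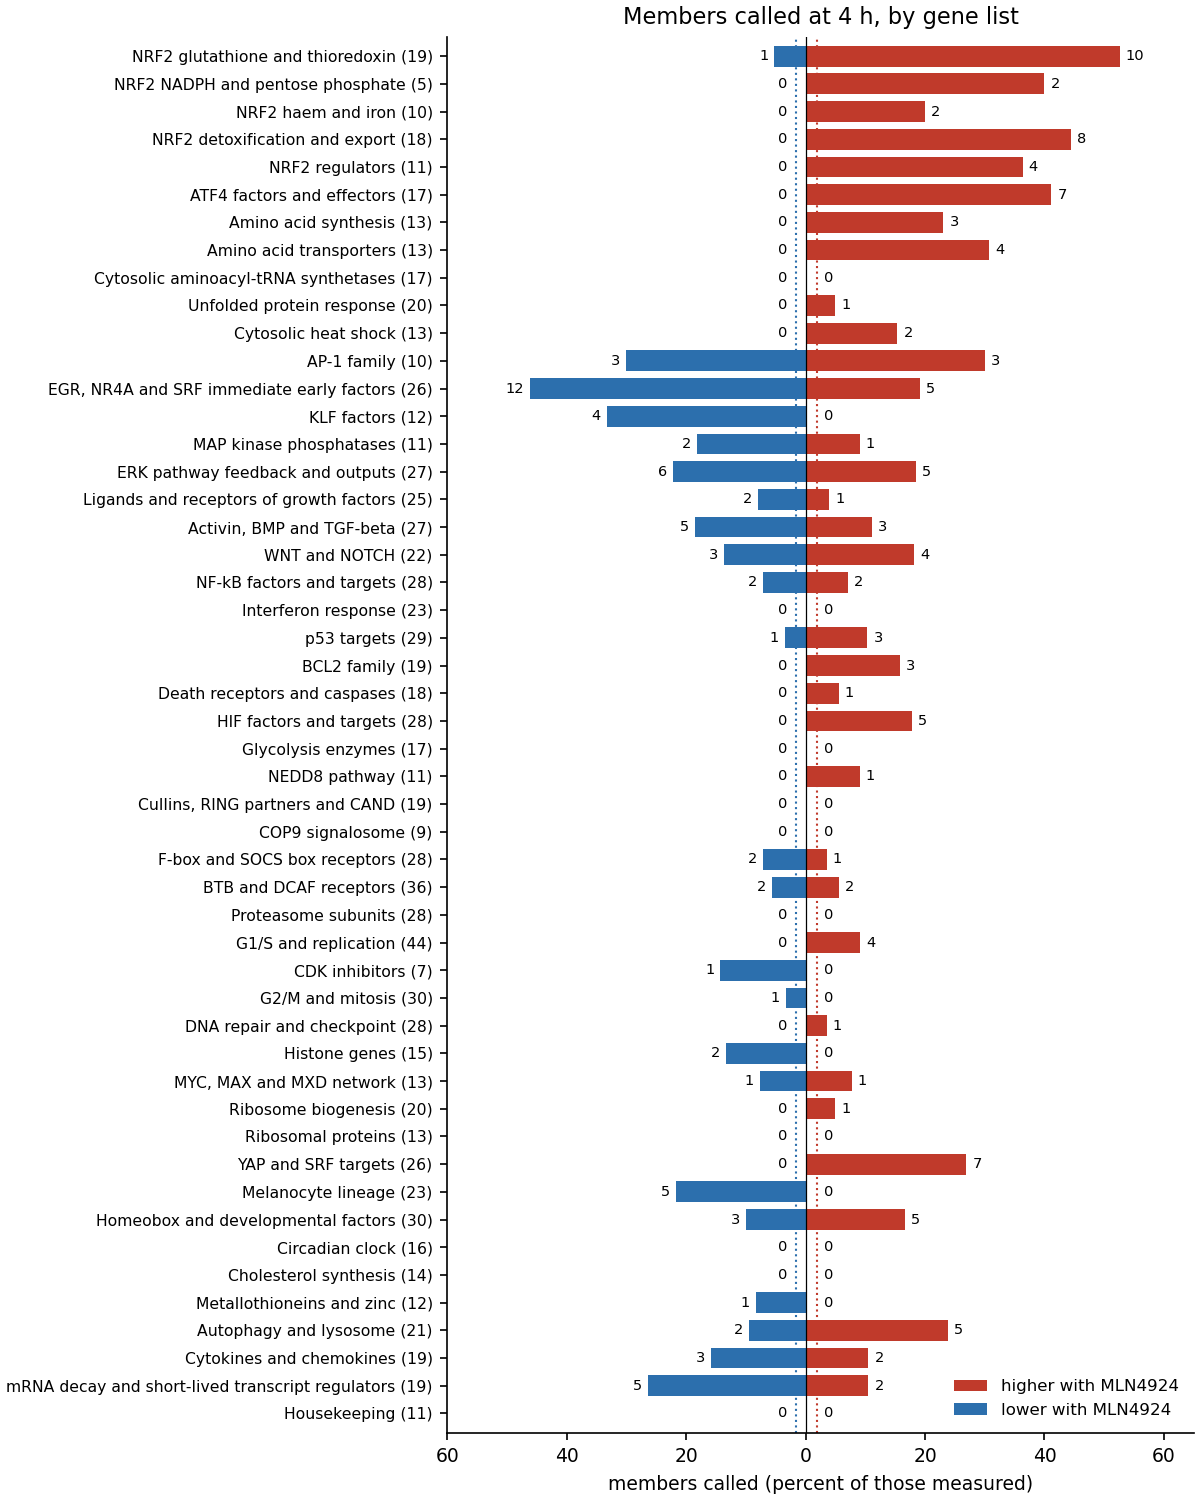
Share of the measured members of gene lists that were called at 4 h, in percent; bars to the right (red) are genes higher with MLN4924, bars to the left (blue) lower. Numbers at the bars are counts of members, numbers in brackets the members measured, and dotted lines mark the shares of all genes, 1.83% up and 1.57% down. NRF2 and ATF4 lists extend to the right and the EGR, NR4A and SRF list mostly to the left, while 10 lists have no member called. Members and lists were chosen with earlier results of these data known, and all genes include dim ones, so the dotted lines are not an independent baseline.

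NF-kB is released when a CUL1 ligase with BTRC degrades its inhibitor. Of 28 NF-kB factors and targets, 2 rose and 2 fell. NFKBIZ, an atypical nuclear inhibitor and co-factor of NF-kB, had 274, 295 and 284 with MLN4924, against 697, 665 and 615 with DMSO (-1.13 ± 0.07 (SE), adjusted p = 1.22e-10). CXCL8 and CXCL1 rose by 0.38 and 0.32 (adjusted p = 0.00484 and 0.00518), though not in the 6-array fit. TNFAIP3 (-0.09, adjusted p = 0.897) and NFKB2 (-0.13, 0.839) did not pass. IL24, a cytokine first found in differentiating melanoma cells, had 85.1, 81 and 81.8 with MLN4924, against 206, 187 and 148 with DMSO (-0.88 ± 0.09 (SE), adjusted p = 7.60e-07). Of 19 cytokines and chemokines 2 rose and 3 fell. None of 23 interferon response genes was called in limma (3 at an unadjusted p under 0.05, 0 to 1 under the alternatives).

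Factors of the melanocyte lineage derive from the neural crest programme, with SOX10 and MITF at its centre. Of 23 lineage genes, 5 fell and none rose in limma (2 were higher at an unadjusted p under 0.05). TFAP2B, an AP-2 factor, had 225, 285 and 257 with MLN4924, against 659.9, 750 and 728 with DMSO (-1.38 ± 0.10 (SE), adjusted p = 1.49e-09). SOX10 had 443, 452 and 394 with MLN4924, against 1088, 627 and 756 with DMSO (-0.86 ± 0.19 (SE), adjusted p = 0.00766). The groups did not overlap in either, but DMSO replicate 1 was the highest for SOX10, and without it SOX10 was not called (adjusted p = 0.0838), nor in the 6-array fit (adjusted p = 0.105), within 0.00109 to 0.105 over all alternatives. MITF fell by 0.41 on the log2 scale (adjusted p = 0.0344), a call lost without MLN4924 replicate 1, 2 or 3 or DMSO replicate 1, 2 or 3, each left out alone (adjusted p = 0.0693 to 0.128), within 0.0172 to 0.128 over all alternatives. ERBB3, described above, is expressed in this lineage too. When arrays were centred, 3 lineage genes fell and 1 rose.

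Among 30 homeobox and other developmental factors, 5 rose and 3 fell. SOX2, a stem cell factor, had 153, 171 and 190.3 with MLN4924, against 411, 389 and 419 with DMSO (-1.11 ± 0.11 (SE), adjusted p = 3.08e-07). FOXO3, a forkhead factor that AKT restrains, rose by 0.56 (adjusted p = 3.98e-07). Of 21 autophagy and lysosome genes 5 rose and 2 fell. The lysosomal enzymes GLA, CTSL and CTSB rose by 0.71, 0.66 and 0.56 (adjusted p = 7.45e-07, 3.57e-06 and 2.06e-06) under every alternative that tested them, as SQSTM1 did. Of 12 metallothionein and zinc genes 1 was called. The zinc exporter SLC30A1 fell (-0.61 ± 0.12 (SE), adjusted p = 0.00371). None of 11 housekeeping genes was called in limma or under any alternative (2 at an unadjusted p under 0.05), nor, in limma, were any of 14 cholesterol synthesis or 16 clock genes (3 at an unadjusted p under 0.05 in each list; 0 under the alternatives for cholesterol and 0 to 1 for the clock).

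Several genes of the 25 largest rises and 25 largest falls lie outside these lists. KRTAP3-1, a keratin-associated protein of hair, had 146, 180.5 and 132 with MLN4924, against 10.8, 10.3 and 10.7 with DMSO (2.11 ± 0.19 (SE), adjusted p = 4.56e-08). F2RL2, the thrombin receptor PAR3, had 370.5, 388 and 370.5 with MLN4924, against 112, 122 and 104 with DMSO (1.50 ± 0.10 (SE), adjusted p = 3.06e-10). HHEX, a homeobox repressor, had 842, 749.7 and 811 with MLN4924, against 343, 348 and 312 with DMSO (1.18 ± 0.10 (SE), adjusted p = 2.19e-08). Groups were separate in each. The neuron navigator NAV3, the helix-loop-helix factor MSC, the p300 inhibitor EID3 and the RAB5 exchange factor RIN2 rose by 1.32, 1.26, 1.26 and 1.14 (adjusted p = 0.00092, 1.10e-06, 3.98e-07 and 4.08e-07). For NAV3 the size ran from 0.39 to 2.61 over the alternatives. On the other side, the polysialyltransferase ST8SIA4, the endosomal recycling protein ANKRD50, the arrestin-like ARRDC3 and MANSC1 fell by 1.21, 1.14, 1.00 and 0.95 on the log2 scale (adjusted p = 8.42e-06, 5.11e-11, 4.97e-07 and 0.000205). The ephrin receptor EPHB3, the zinc transporter SLC39A11, the hyaluronidase CEMIP2 and the scaffold FRMD4A fell by 0.90, 0.89, 0.86 and 0.86 (0.000286, 8.49e-07, 1.13e-05 and 6.89e-05). RCAN1, the calcineurin regulator, fell by 0.86 (4.00e-07), but the dim probe set used when less specific ones were left out (28.8 with MLN4924 and 24.3 with DMSO) gave 0.13 (adjusted p = 0.895, 3.27e-08 to 0.895 over all alternatives). UBBP1, a ubiquitin B pseudogene whose probes may also bind ubiquitin mRNA, fell by 0.97 (8.12e-06).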

How the data were processed

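Affymetrix HG-U133 Plus 2.0 arrays measured mRNA, and the deposited values are linear signal intensities per probe set, which the authors made with Affymetrix Expression Console, per the submitters' processing notes. Which algorithm and version it ran is not given in the sources used here. Probe sets were named through the platform annotation, and the 11721 with no symbol and 1801 with several were left out of the gene test. All 30 arrays were quantile normalized, and log2(intensity + 32) was fitted with limma 3.58.1 (R 4.3.3): lmFit with 1 mean for each of 10 groups, the contrast of MLN4924 and DMSO at 4 h, eBayes and Benjamini-Hochberg adjustment, two-sided. Each gene was represented by its probe set of highest mean over all arrays. The spread was thus shared by all groups. The code was tested on simulated data. Genes named are the 25 largest rises and 25 largest falls with non-overlapping groups and a signal above the median, clone and reading frame names passed over, and members of fixed lists; members and lists were chosen with earlier results of these data known, and exceptions are named as such; 1 gene list is not reported here. Alternatives varied the scaling, the added constant, probe set choice, low signals, arrays fitted, replicate block, eBayes and single arrays left out.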

Additional observations from a re-analysis of the deposited data

Results flagged for a closer look

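Probe sets without a single gene name were left out of the gene test and carried signal of their own. Of 11721 probe sets with no gene symbol in the platform annotation, 154 were called between MLN4924 and DMSO (1.31%, 68 higher and 86 lower), while 926 of 41091 probe sets with 1 symbol were called (2.25%). The log2 changes of the 154 ran from -1.46 to 1.31. Of 1801 probe sets with several symbols, 39 were called (2.17%, 23 higher and 16 lower). No gene is named for any of these.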

How the results depend on the processing

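Over 17 alternatives the count of called genes ran from 295 to 799. Leaving out 1 of the 6 arrays at a time gave 458 to 547, and 324 of the 671 genes stayed called in each of these fits. A fit of the 6 arrays alone, with fewer arrays behind the spread, called 295 genes, 154 higher and 141 lower. With 1 in place of 32 added before logs, 107 called genes changed at least 2-fold, since dim signals then give larger ratios. With the probe set of each gene held fixed, a check added after the data were seen, 108 did so. The share of called genes that rose was 49.1% with signals as deposited, 67.7% with arrays centred and 57.7% with probe sets averaged, and no called gene changed sign under either other scaling. Of 147 called genes named in the text, 94 stayed called under all alternatives that tested them. Of 52 named genes that were not called, 9 were called under 1 to 5 alternatives. List counts in 1 direction stayed within 1.5 times of the main count in 1599 of 1870 comparisons. The replicate number as a block (replicate block) gave 508 calls (268 up, 240 down). The correlations of deviations between same-numbered arrays were 0.073, -0.042 and -0.01, and between arrays of other numbers -0.086 to 0.093. Taken across genes, which are not independent, these cannot tell whether the numbers pair the arrays. The labels do not say so either, and no other pairing was tried. Of the genes named, RCAN1 was called and the others below were not. The log2 change had the opposite sign with signals as deposited for HIF1A (0.112) and CCNB1 (0.05). It did so with arrays centred for JUN (0.048), RBX1 (0.058), FOSL1 (0.005), NCL (0.039), HIF1A (0.171) and CCNB1 (0.109). It did so with probe sets averaged for TXN (-0.127), MDM2 (-0.012) and FBXW7 (-0.019). It did so with the less specific probe sets left out for TXN (-0.341), NCL (0.111), SLC2A1 (-0.028), MDM2 (-0.027) and RCAN1 (0.13). Leaving out single arrays gave changes on both sides of 0, from -0.019 to 0.049 for NEDD8, -0.067 to 0.009 for JUN, -0.099 to 0.179 for CDT1, -0.155 to 0.192 for DDIT3, -0.103 to 0.004 for FOSL1, -0.457 to 0.033 for MYL9, -0.023 to 0.016 for HIF1A, -0.078 to 0.013 for CCNB1 and -0.203 to 0.053 for TNFAIP3. The causes of these differences between probe sets and arrays were not tested. Signal near background limits what can be said of dim genes, and the 3 arrays of each group limit precision.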

Other observations

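Outside the lists above, other genes whose groups did not overlap and whose calls held under all alternatives that tested them were picked out after their values were seen. Signalling components were among those that rose. IRS1, the insulin receptor adaptor, had 543, 513 and 525 with MLN4924, against 238, 217 and 224 with DMSO (log2 change 1.11 ± 0.09 (SE), adjusted p = 1.65e-08). MAP3K14, the NF-kB inducing kinase, had 169.5, 194 and 188 with MLN4924, against 91.7, 97.8 and 79.2 with DMSO (0.83 ± 0.10 (SE), adjusted p = 7.61e-06). MALT1, a protease of NF-kB signalling, and MAP3K1, a kinase upstream of JNK, rose by 0.78 and 0.81 (adjusted p = 3.24e-06 and 1.03e-05). The receptor TLR4 and the kinase PIM1 rose by 0.59 and 0.78 (adjusted p = 0.000128 and 0.000112). NEIL3, a DNA glycosylase, had 635, 579.7 and 629 with MLN4924, against 287, 285 and 250.5 with DMSO (1.08 ± 0.08 (SE), adjusted p = 1.15e-09). SPP1, the secreted protein osteopontin, had 411, 452 and 373 with MLN4924, against 182, 172 and 191 with DMSO (1.05 ± 0.09 (SE), adjusted p = 2.07e-08). KRTAP4-9 rose (1.01 ± 0.15 (SE), adjusted p = 7.69e-05) as KRTAP3-1 did, from a dim probe set.

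Genes that fell in the same way included a ligand-activated receptor and its known target. AHR, the aryl hydrocarbon receptor, had 449, 479 and 474 with MLN4924, against 690.4, 700.3 and 722 with DMSO (-0.56 ± 0.08 (SE), adjusted p = 5.89e-05). TIPARP, which AHR induces and which restrains it, had 488, 512 and 468 with MLN4924, against 768, 747 and 795 with DMSO (-0.62 ± 0.07 (SE), adjusted p = 7.05e-07). PPARG, the nuclear receptor of fat cells, had 332, 338 and 304 with MLN4924, against 553, 589.5 and 605 with DMSO (-0.79 ± 0.08 (SE), adjusted p = 1.66e-07). LINC00473, a long noncoding RNA, had 43, 65.2 and 60.9 with MLN4924, against 155, 156 and 161 with DMSO (-1.11 ± 0.10 (SE), adjusted p = 1.17e-07). Of the homeobox genes, HOXC6 fell by 0.67 on the log2 scale and HOXB2 rose by 0.79 (adjusted p = 0.000127 and 4.08e-07).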
